A study of Mus musculus with 9 samples.

Results

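The nuclear-encoded genes of the respiratory chain and ATP synthase were followed in the mouse line LLC1 and its subclones SCC1 and SCC2. Members were chosen by symbol: names that begin with Nduf, Uqcr, Cox4 to Cox8 or Atp5, and Sdha to Sdhd, without the pseudogene name Ndufab1-ps. The rule found 93 of the 15768 symbols in the table, and no measured value entered it. The members were 7 core subunits, 30 supernumerary subunits and 8 assembly factors of complex I, 4 genes of complex II, 8 of complex III, 16 of complex IV, 17 of complex V and 3 copies whose names end in b or c. Ndufa4 and Ndufa4l2 carry a complex I name and were placed in complex IV, where the Ndufa4 protein resides.

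LLC1 derives from the Lewis lung carcinoma of the mouse and is labelled as tumor cells of lung tissue with genotype WT and as untreated. SCC1 and SCC2 were each grown from a single LLC1 cell by limiting dilution and then kept in the same medium, so each is 1 clone and stands for itself only. Each line had 3 RNA-seq libraries, with 17094808 to 19398657 fragments per library as worked back from the deposited values. Whether those 3 libraries were separate cultures is not stated, so p-values here reflect the spread between these samples alone, and that spread may be technical.

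The respiratory chain sits in the mitochondrial inner membrane. Complex I oxidises NADH and complex II succinate, both pass electrons to ubiquinone, complex III hands them to cytochrome c, and complex IV passes them to oxygen. The proton gradient that complexes I, III and IV build drives complex V, the ATP synthase. Most subunits are encoded in the nucleus and a few, including the catalytic core of complex IV, in mitochondrial DNA, so the complexes need proteins from both genomes. The mitochondrially encoded subunits were not analysed here.

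Promoter windows were read for 76 of the 93 members from RefSeq on GRCm38.p6, in 81 windows of 300 bases from 250 before to 50 after the start of the gene. Exact matches were searched on both strands for cores known from respiratory chain promoters: CGCATGCG, bound by NRF1, CCGGAAGT, bound by GABP and other ETS factors, and AAGATGGC, bound by YY1. The NRF1 core stood in 11 of 81 member windows (13.6%), in 4.18% of the windows of all tested genes and in 1.87% of all windows. The YY1 core stood in 11 member windows (13.6%), against 4.78% and 2.75%, and the ETS core in 5 (6.17%), against 8.92% and 3.89%. A match is a run of letters and no evidence of binding. Shown first are the 250 bases upstream of Ndufa8, Ndufaf4 and Atp5g2, members with an NRF1 core that went different ways in the subclones, and of Uqcrh, with an ETS core on the opposite strand, the subunit with the largest fall in SCC1. Then come Sdha and Uqcrfs1, which rose together in SCC2 and have no match to these cores in the window. Each is written 5′ to 3′ on the strand of its gene, in lower case with the core in capitals. Ndufa8 lies on the minus strand at chr2:36049339-36049588, Ndufaf4 on the plus strand at chr4:24897833-24898082, and Atp5g2 on the minus strand at chr15:102671048-102671297. Uqcrh at chr4:116075071-116075320, Sdha at chr13:74350241-74350490 and Uqcrfs1 at chr13:30545317-30545566 are all on the minus strand.
Ndufa8: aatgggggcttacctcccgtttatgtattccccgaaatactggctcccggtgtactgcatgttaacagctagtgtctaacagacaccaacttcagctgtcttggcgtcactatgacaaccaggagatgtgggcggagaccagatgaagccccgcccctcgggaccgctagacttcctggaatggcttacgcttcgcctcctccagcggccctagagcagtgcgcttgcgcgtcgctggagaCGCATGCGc
Ndufaf4: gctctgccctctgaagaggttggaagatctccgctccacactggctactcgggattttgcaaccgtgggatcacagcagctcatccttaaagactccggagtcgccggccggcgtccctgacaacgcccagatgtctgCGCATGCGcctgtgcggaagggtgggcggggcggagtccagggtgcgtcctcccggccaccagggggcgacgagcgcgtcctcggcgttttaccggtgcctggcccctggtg
Atp5g2: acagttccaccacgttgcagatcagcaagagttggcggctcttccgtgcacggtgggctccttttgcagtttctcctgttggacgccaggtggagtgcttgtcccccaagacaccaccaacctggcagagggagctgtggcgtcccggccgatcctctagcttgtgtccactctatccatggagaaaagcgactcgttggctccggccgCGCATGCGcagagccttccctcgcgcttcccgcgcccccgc
Uqcrh: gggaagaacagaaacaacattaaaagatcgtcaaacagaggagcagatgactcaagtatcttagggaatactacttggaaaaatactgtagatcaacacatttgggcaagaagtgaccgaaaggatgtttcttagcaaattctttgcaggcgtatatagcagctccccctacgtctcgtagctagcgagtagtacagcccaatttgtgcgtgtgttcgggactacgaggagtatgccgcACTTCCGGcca
Sdha: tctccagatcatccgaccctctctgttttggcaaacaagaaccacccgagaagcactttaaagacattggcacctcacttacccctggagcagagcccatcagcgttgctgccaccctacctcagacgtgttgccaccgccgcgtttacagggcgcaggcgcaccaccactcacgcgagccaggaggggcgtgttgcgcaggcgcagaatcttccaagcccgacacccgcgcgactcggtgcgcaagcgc
Uqcrfs1: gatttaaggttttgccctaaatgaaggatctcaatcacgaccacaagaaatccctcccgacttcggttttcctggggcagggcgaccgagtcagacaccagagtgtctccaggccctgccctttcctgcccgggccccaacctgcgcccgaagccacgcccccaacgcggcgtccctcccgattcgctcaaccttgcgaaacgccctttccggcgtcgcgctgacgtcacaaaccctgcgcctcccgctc

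Transcript levels differed far more between the complexes than between the lines. Levels are FPKM, fragments per length of the gene and per depth of the library, so they can be set side by side across genes. In LLC1 the median mean level was 153 FPKM for complex IV, 127 for complex V, 89.0 for complex II and 75.6 for complex III. Complex I subunits lay lower, at 49.5 for the core and 44.4 for the supernumerary subunits, and its assembly factors, which help to build the complex and leave it, at 8.85. The catalytic beta subunit of ATP synthase, Atp5b, was the highest member (633, 626 and 633 FPKM in the 3 LLC1 libraries), followed by the alpha subunit Atp5a1 (384, 385 and 383) and the c subunit gene Atp5g2 (372, 389 and 386). The highest complex IV member was Cox8a (354 ± 1.67 FPKM, mean ± SD, n = 3), and those of complexes I, II and III were Ndufa7 (157 ± 1.24), Sdhc (102 ± 4.13) and Uqcrh (155 ± 5.32). Among the assembly factors Ndufaf8 was the highest at 15.8 ± 0.498 and Ndufaf6 the lowest at 1.48 ± 0.0524 FPKM, which still rests on 106 to 124 fragments per LLC1 library. The lowest of the complex I subunits, complex III and complex V were Ndufa11 (16.1 ± 0.471), Uqcrq (35.4 ± 0.255) and Atp5k (49.3 ± 2.49). Of the 500 genes with the highest FPKM in the table, 23 were members (4.6%).

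**Figure D1:**
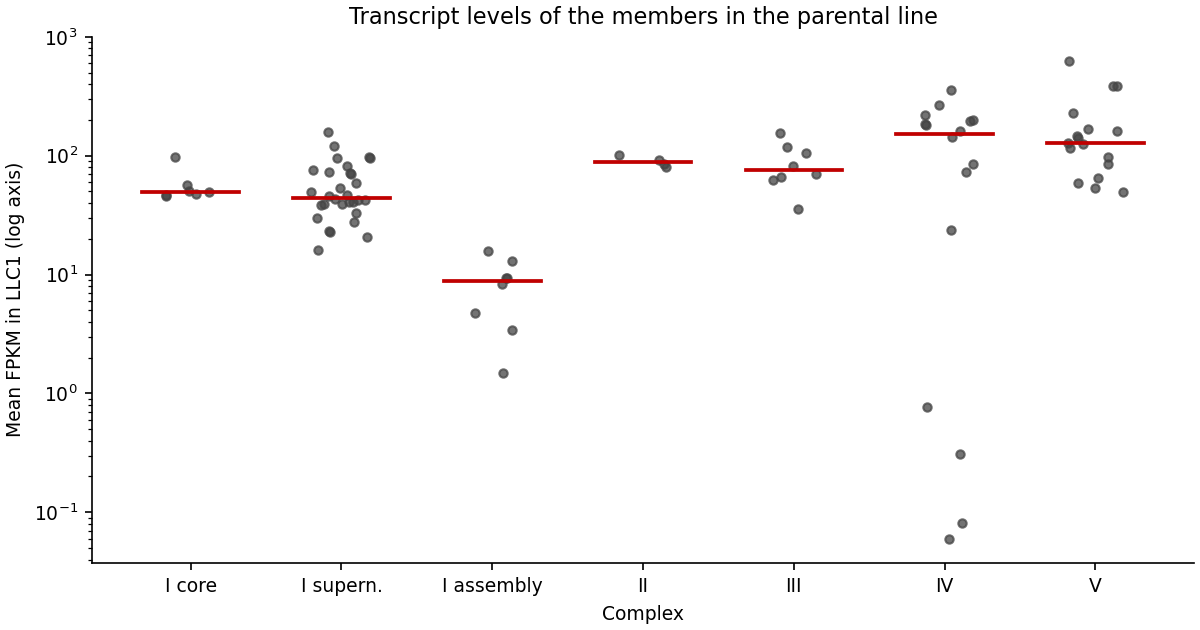
Mean FPKM of the members in LLC1 on a log axis, by complex, each point 1 gene (mean of 3 libraries) and the red line the median of the group; the 3 copies named b or c are left out. Complexes IV and V sit highest (medians 153 and 127 FPKM), assembly factors of complex I lowest (8.85), and 4 complex IV genes lie under 1 FPKM.

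Several subunits have tissue-restricted versions, and here the widespread version was by far the more abundant. Cox6a1 had 221, 215 and 222 FPKM in LLC1, whereas its heart and muscle relative Cox6a2 had 0.325, 0.334 and 0.266. Cox6b1 had 163 ± 7.36 FPKM and its testis relative Cox6b2 was seen in 2 LLC1 libraries only, at under 3 fragments each as worked back and at 0 in the other 7 libraries. Cox7a2 had 72.2 ± 5.08 and the muscle version Cox7a1 0.77 ± 0.266, while Ndufa4 had 199 ± 13.3 and its hypoxia-linked relative Ndufa4l2 0.0807 ± 0.0289. Cox4i1 had 269 ± 1.95 FPKM. The copies Ndufb4b, Ndufb4c and Ndufs6b had means of 0.832, 0.312 and 1.21 FPKM in LLC1. Cox6a2 reached 1.51, 0.975 and 0.74 FPKM in the SCC2 libraries, all above those of LLC1, and 0.391, 0.0818 and 0.166 in SCC1, too low for the test; exons of Itgad overlap it on the opposite strand.

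Changes were tested with limma on log2(FPKM + 1), with 10519 genes that had at least 1 FPKM in at least 3 of 9 libraries. Of the 93 members 89 were tested, and Cox6a2, Cox6b2, Ndufa4l2 and Ndufb4c were too low. A log2 change is a difference of mean log2(FPKM + 1), a scale that understates changes of low genes, and a gene is called at a Benjamini-Hochberg adjusted p under 0.05. Libraries of a line lay close together: over 83 members with at least 5 FPKM in each line, the median coefficient of variation within a line was 2.86%. Small changes were therefore called, among members and among all genes alike.

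In SCC1, members tended upward against LLC1, mainly in complexes I and IV, while complex III was split. Of 89 members 50 were higher and 18 lower (56.2% and 20.2%), where 39.2% of all tested genes were called higher and 30.9% lower (70.1% in either direction). The median log2 change was 0.12 for members and 0.03 for all tested genes. The changes were small, with a median size of 0.16 against 0.17 for all genes, and 0 members were called at 1.5-fold or more on the FPKM + 1 scale, against 6.54% of all genes. As a ratio of mean FPKM, 2 called members passed 1.5-fold, Cox7a1 (1.81) and the copy Ndufs6b (1.59), both under 2 FPKM on average in each line. In complex I, 29 of 47 genes rose and 6 fell (median 0.14): 5 and 2 of the 7 core subunits, 18 and 3 of the 30 supernumerary subunits, and 5 and 1 of the 8 assembly factors. The 47 include the 2 tested copies named b or c, of which 1, Ndufs6b, rose and 0 fell. In complex IV 8 of 13 rose and 3 fell (median 0.18), in complex III 5 of 8 and 3 (0.13), in complex V 7 of 17 and 5 (0.03), and in complex II 1 of 4 and 1 (-0.01).

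The core subunits of complex I that fell in SCC1 were Ndufs8 and Ndufs7, iron-sulfur proteins on the electron path to ubiquinone. Ndufs8 had 46.1, 45.9 and 47.3 FPKM in LLC1 and 38.7, 38.3 and 36.8 in SCC1, with no overlap (log2 change -0.28, SE 0.0283, limma adjusted p = 3.09e-06). Ndufs7 went from 47.8 ± 3.14 to 40 ± 1.07 FPKM (log2 change -0.25). Against these, Ndufv2, of the part that takes electrons from NADH, rose from 50.6 ± 2.91 to 59.3 ± 3.19, and the largest iron-sulfur subunit Ndufs1 from 46.1 ± 0.266 to 50.1 ± 0.807. The core thus did not move as a unit.

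Among supernumerary subunits the largest rises were in Ndufa5, Ndufb9 and Ndufb1. Ndufa5 had 30.3, 34.9 and 33.5 FPKM in LLC1 and 44.4, 43.3 and 43.6 in SCC1 (log2 change 0.40, SE 0.0463, limma adjusted p = 1.07e-05). Ndufb9, a small protein of the membrane arm, had 121, 122 and 119 in LLC1 and 158, 155 and 154 in SCC1 (log2 change 0.37, SE 0.0176, limma adjusted p = 6.33e-09). All SCC1 libraries lay above all LLC1 libraries for both genes, although exons of another gene, Gm49356, overlap Ndufb9 on the same strand. Ndufb1 went from 49.3 ± 4.44 to 61 ± 5.09 FPKM (log2 change 0.30). Of the assembly factors, Ndufaf4 (3.39 ± 0.334 to 4.39 ± 0.363 FPKM), Ndufaf5 (8.3 ± 0.5 to 10.4 ± 1), Ndufaf2 (9.4 ± 0.411 to 11.7 ± 0.156), Ndufaf1 (9.41 ± 0.858 to 11.2 ± 0.452) and Ndufaf7 (12.9 ± 0.343 to 15.2 ± 0.587) rose.

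Complex II moved little in SCC1. The flavoprotein Sdha, which oxidises succinate, rose from 92.1 ± 1.36 to 103 ± 1.76 FPKM (log2 change 0.16), and the membrane anchor Sdhd fell from 85.9 ± 2.38 to 76.9 ± 0.822 (-0.16). The iron-sulfur subunit Sdhb (80.2 ± 1.03 and 79 ± 2.49) and the other anchor, Sdhc (102 ± 4.13 and 101 ± 3.33), were not called.

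Complex III held both the largest fall and one of the largest rises among the members. Uqcrh, the acidic hinge protein at the contact with cytochrome c, had 156, 149 and 159 FPKM in LLC1 and 106, 106 and 104 in SCC1, with no overlap (log2 change -0.55, SE 0.0359, limma adjusted p = 9.52e-08). The small subunit Uqcr10 went the other way, from 117, 122 and 113 to 157, 154 and 153 FPKM (log2 change 0.39, SE 0.0294, limma adjusted p = 2.75e-07). The summed level of the 8 genes was 691.8 ± 1.99 FPKM in LLC1 and 691.6 ± 2.76 in SCC1, so these changes offset each other in the sum.

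In complex IV Ndufa4 rose from 188, 195 and 213 FPKM to 259.9, 254 and 255 (log2 change 0.37, SE 0.0395, limma adjusted p = 6.17e-06). Cox7b (84.4 ± 0.468 to 101 ± 2.17 FPKM), Cox4i1 (269 ± 1.95 to 306 ± 4.65) and Cox6b1 (163 ± 7.36 to 177 ± 4.83) rose too. Cox7a2 fell from 72.2 ± 5.08 to 57.7 ± 1.73 FPKM and Cox8a from 354 ± 1.67 to 307 ± 8.98. The muscle version Cox7a1 was called higher, at 0.465, 0.956 and 0.889 and 1.23, 1.76 and 1.19 FPKM, but 3 fragments are worth 0.359 FPKM in LLC1 and the call rests on 4 to 15 fragments per library.

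Complex V was mixed in SCC1. Its catalytic pair moved in opposite directions: Atp5b fell from 631 ± 3.91 to 562 ± 6.45 FPKM (log2 change -0.16), and Atp5a1 rose from 384 ± 1.09 to 426 ± 3.05 (0.15; exons of Haus1 overlap it on the opposite strand). Atp5d, the delta subunit of the rotor, fell from 115 ± 1.91 to 95.2 ± 1.7. The membrane c ring has 3 genes for the same mature protein, of which Atp5g3 (227 ± 0.267 to 278 ± 1.54) and Atp5g1 (59 ± 1.72 to 68.6 ± 1.15) rose, while Atp5g2 was not called (382 ± 9.03 and 369 ± 9.06).

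**Figure D2:**
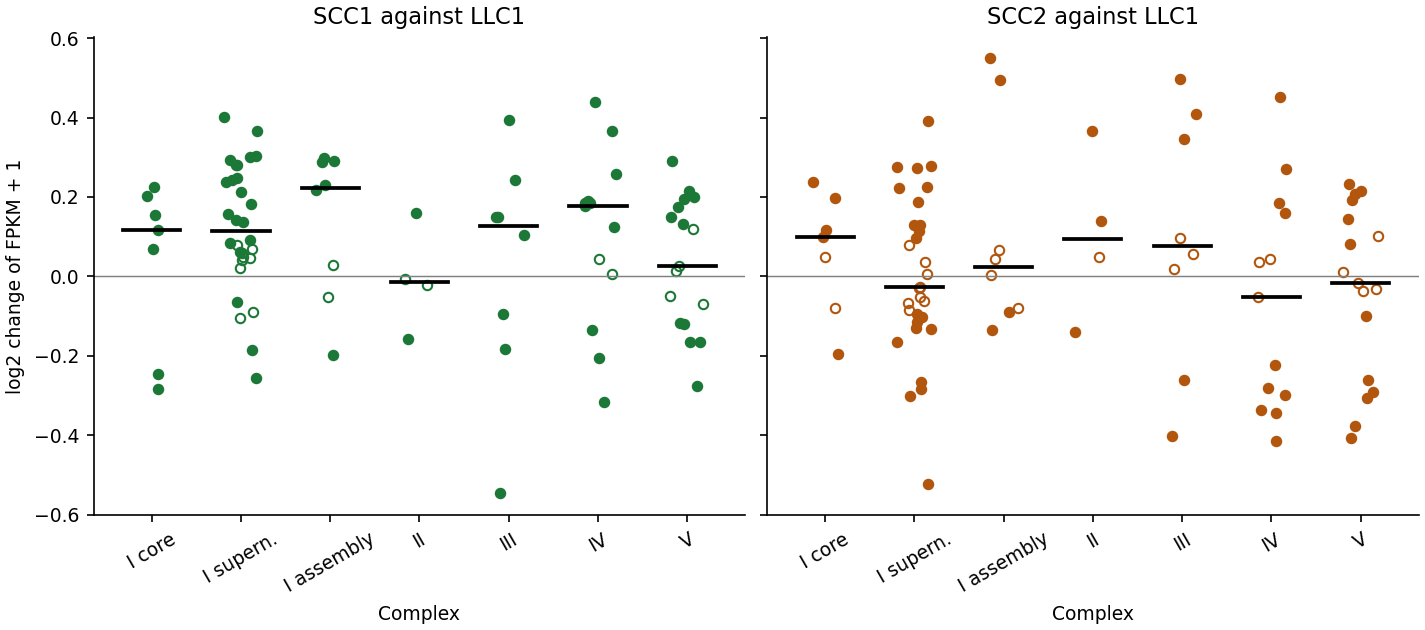
Difference of mean log2(FPKM + 1) from LLC1 for each tested member of SCC1 (left) and SCC2 (right) by complex; each point is 1 gene, filled where the limma adjusted p was under 0.05 and open otherwise, the bar is the median, and the tested copies Ndufb4b and Ndufs6b are left out. In SCC1 the complex I groups have medians of 0.12 (core), 0.11 (supernumerary) and 0.22 (assembly). In SCC2 the group medians run from -0.05 (complex IV) to 0.10 (complex I core), with points on both sides of 0.

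In SCC2 there was no common direction: members rose and fell in near-equal numbers. Of 89 members 32 were higher and 28 lower (36.0% and 31.5%), where 34.7% and 32.9% of all tested genes were called (67.6% in either direction), so the shares were near the background. The median log2 change was 0.04 for members and 0.01 for all genes, and 0 members were called at 1.5-fold or more on the FPKM + 1 scale, against 5.74% of all genes. As a ratio of mean FPKM, 3 called members passed it: Ndufaf4 (1.53), Ndufaf2 (1.51) and Cox7a1 (0.561), whose libraries overlap. Complex I had 17 higher and 13 lower of 47 (core 4 and 1, supernumerary 11 and 10, assembly factors 2 and 2, copies 0 and 0). Complex II had 2 and 1 of 4, complex III 3 and 2 of 8, complex IV 4 and 6 of 13, and complex V 6 and 6 of 17.

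The core subunit Ndufs8, lower in SCC1, was higher in SCC2, at 53, 56.2 and 55.6 FPKM (log2 change 0.24 against LLC1, SE 0.0283, limma adjusted p = 1.53e-05). Ndufs1 also rose, to 53 ± 0.988 FPKM, and Ndufv2 fell to 44 ± 1.37. Among supernumerary subunits the largest fall was in Ndufa6, a subunit of the family with the LYR motif, with 95, 95.7 and 101 FPKM in LLC1 and 67.7, 69.8 and 64.4 in SCC2 (log2 change -0.52, SE 0.0352, limma adjusted p = 1.37e-07). Ndufb9, which had risen in SCC1, fell to 98.7, 96.6 and 97.6 (-0.30), below every LLC1 library. Ndufs6 rose from 39.5, 40.2 and 41.5 to 53.2, 52.9 and 53.9 (0.39; exons of Mrpl36 overlap it on the opposite strand). The assembly factors Ndufaf2 and Ndufaf4 had the largest rises of the 89 tested members by ratio of mean FPKM. Ndufaf2 went from 9.87, 9.11 and 9.22 to 14.7, 14.9 and 13.1 (0.55), and Ndufaf4, which acts early in assembly, went from 3.73, 3.06 and 3.38 to 4.9, 4.97 and 5.68 (0.50).

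Complex II had the largest relative rise in summed level of the 5 complexes in SCC2. Sdha had 90.7, 93.4 and 92.2 FPKM in LLC1 and 121, 119 and 116 in SCC2 (log2 change 0.37, SE 0.0213, limma adjusted p = 4.05e-08), and Sdhc went from 102 ± 4.13 to 112 ± 2.44 (0.14). Sdhd fell to 77.8 ± 1.33 (-0.14) and Sdhb was not called (83 ± 2.01). The 4 genes summed to 359.9 ± 4.07 FPKM in LLC1, 360.0 ± 1.07 in SCC1 and 392.0 ± 2.13 in SCC2, so the SCC2 libraries stood above all others.

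In complex III the Rieske iron-sulfur protein Uqcrfs1 rose from 72, 72.4 and 65.7 FPKM to 94.3, 90.7 and 94.8 (log2 change 0.41), Uqcrb from 63.5, 63.4 and 60.5 to 86.5, 90.9 and 88.2 (0.50; exons of Gm10767 overlap it on the opposite strand), and Uqcrq from 35.4 ± 0.255 to 45.2 ± 2.34 (0.35). Uqcrh was low again, at 116, 124 and 111 (-0.40, SE 0.0359, limma adjusted p = 1.51e-06), below every LLC1 library. It was thus lower in both subclones, as were other members, among them Cox7a2 (57 ± 2.49 FPKM in SCC2) and Sdhd. Cox7a2 and Sdhd both lie on chromosome 9, whose other tested genes had median log2 changes of -0.19 in SCC1 and -0.16 in SCC2.

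In complex IV Cox7c rose from 147, 143 and 141 to 189, 202 and 201 FPKM (log2 change 0.45), and Cox6c fell from 193, 198 and 193 to 143, 148 and 146 (-0.41, SE 0.0186, limma adjusted p = 4.84e-09). Ndufa4 fell to 156, 161 and 151 FPKM (-0.35), the opposite of SCC1, and Cox7a2l, which helps complexes III and IV to associate, fell from 185 ± 2.32 to 152 ± 3.94. In complex V the small membrane protein Atp5mpl had 66.8, 62.8 and 66.5 FPKM in LLC1 and 49, 49.4 and 48.7 in SCC2 (-0.41, SE 0.0249, limma adjusted p = 6.12e-08). Atp5g2 fell to 294 ± 5.54 and Atp5a1 to 310.1 ± 1.66, while Atp5b rose to 728 ± 3.77 FPKM. Atp5j, the coupling factor of the stalk, rose from 53.1 ± 2.06 to 62.6 ± 0.865 (0.23; it overlaps exons of Gabpa on the opposite strand).

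**Figure D3:**
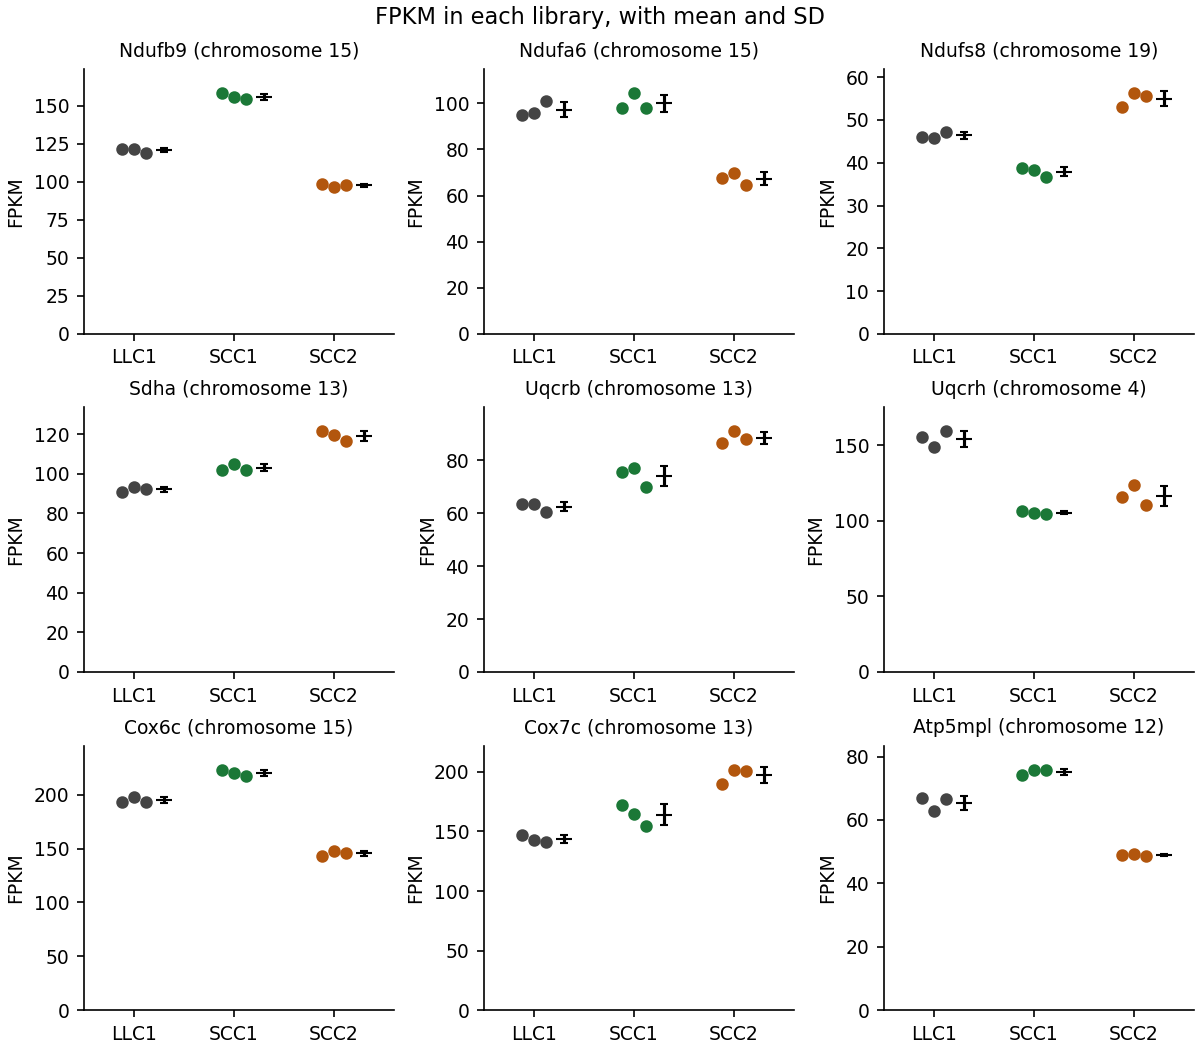
FPKM of 9 members (linear axes from 0) in each library of LLC1, SCC1 and SCC2, with mean and SD (n = 3) to the right of the points and the chromosome of each gene in its title. Ndufb9 and Cox6c are highest in SCC1 and lowest in SCC2, Ndufs8 is the reverse, Sdha, Uqcrb and Cox7c are highest in SCC2, and Uqcrh is highest in LLC1.

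Members differed between the subclones by a median size of 0.19 on the log2 scale, against 0.16 and 0.14 from LLC1. All tested genes differed likewise, by 0.23 between the subclones and by 0.17 and 0.16 from LLC1. Both comparisons above share the LLC1 libraries, so SCC2 was also set against SCC1 directly. Of 89 members 28 were higher and 40 lower in SCC2 (31.5% and 44.9%), where 37% and 39.4% of all tested genes were called (76.3% in either direction). The median log2 difference was -0.05 (all tested genes -0.00), and 5 members (5.62%) were called at 1.5-fold or more, against 11.9% of all genes, on the FPKM + 1 scale; the ratio of mean FPKM gave 5 as well. These were Cox7a1, at 1.39 ± 0.317 FPKM in SCC1 and 0.432 ± 0.13 in SCC2, and 4 abundant members. Ndufa4 differed by -0.71 (SE 0.0395, limma adjusted p = 1.18e-08), Ndufb9 by -0.67 (SE 0.0176, limma adjusted p = 2.36e-11), Atp5mpl by -0.61 and Cox6c by -0.59, all lower in SCC2. Complex I had 12 higher and 21 lower of 47, complex IV 4 and 8 of 13, complex V 4 and 8 of 17, complex III 5 and 3 of 8, and complex II 3 and 0 of 4. Ndufs8 was higher in SCC2 by 0.52 (SE 0.0283, limma adjusted p = 9.38e-09), Atp5j by 0.40 and Atp5b by 0.37.

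Summed over the subunit genes among the members, complexes I, IV and V were highest in SCC1, and complexes II and III in SCC2. The complex III sum leaves out Cyc1, its cytochrome c1 subunit, whose symbol the rule does not match. Cyc1 had 92.8, 112 and 72.3 FPKM in LLC1, SCC1 and SCC2, a wider spread than that of the complex III sums. The order of the lines for complex III therefore holds for the members only. The 40 genes of complex I subunits, copies included, summed to 2088 ± 12.8 FPKM in LLC1, 2286 ± 18.4 in SCC1 and 2061 ± 12.4 in SCC2, with every SCC1 library above all others. Complex IV summed to 2089 ± 14.6, 2231 ± 18.3 and 2087 ± 39.9, with every SCC1 library again above all others. Complex V summed to 3021 ± 14.0, 3065 ± 16.9 and 2949 ± 35.7, and complex III in SCC2 to 707.1 ± 12.5. Here too every SCC1 library of complex V (lowest 3046) and every SCC2 library of complex III (lowest 696) lay above all others (highest 3035 and 695), by narrow margins. The sums lean on the most abundant genes and carry no test. FPKM is relative to the other RNA of a library, and fewer cells with a transcript cannot be told apart from less transcript per cell.

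**Figure D4:**
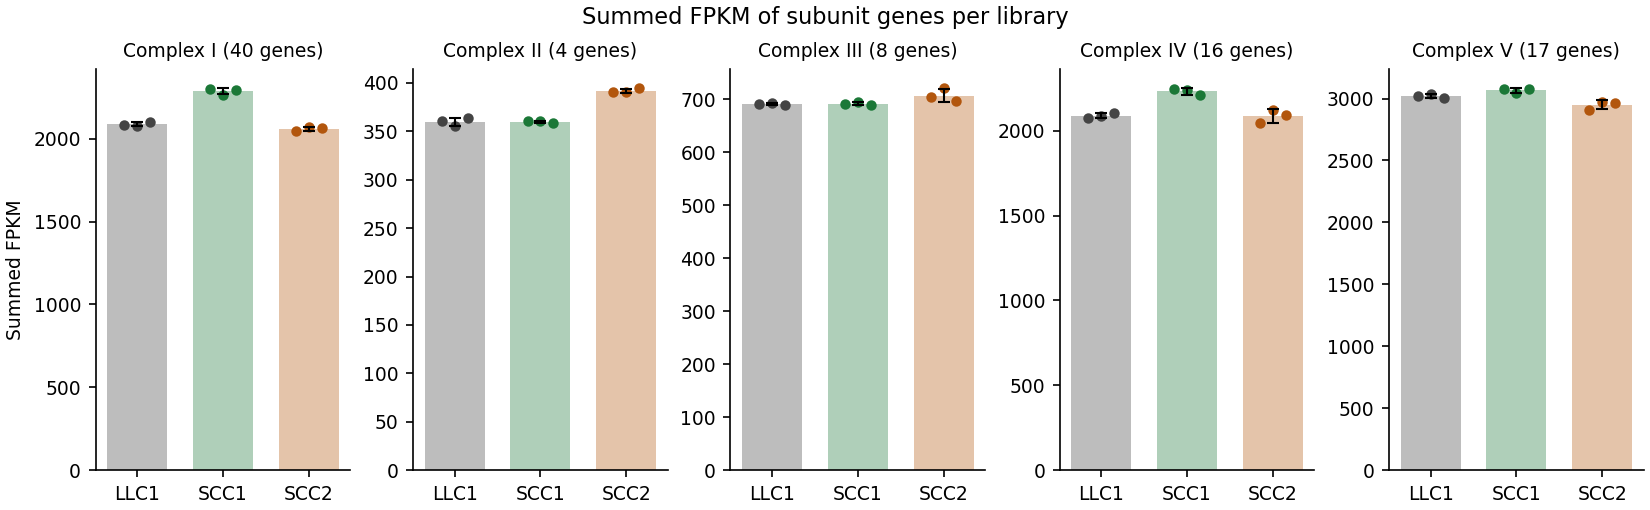
Summed FPKM of the subunit genes of each complex among the members. Assembly factors and Cyc1 of complex III are left out. Bars are means of 3 libraries from 0, error bars the SD, points the libraries. Complexes I, IV and V are highest in SCC1 (2286, 2231 and 3065 FPKM), and complexes II and III in SCC2 (392.0 and 707.1 FPKM).

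The members' changes followed the chromosome on which each gene lies. For each member, the median log2 change of the other tested genes of its chromosome was taken from the whole table. Across the 89 members, Pearson's r between a member's change and this median was 0.658 in SCC1, 0.786 in SCC2 and 0.801 for SCC2 against SCC1. These are descriptions across genes, which share libraries and, within a chromosome, the same median. A member had the sign of its chromosome in 76, 66 and 67 of 89 cases. The median distance from the chromosome's median was 0.11, 0.09 and 0.10, against a median size of change of 0.16, 0.14 and 0.19.

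The 7 members on chromosome 13 all rose in SCC2, with log2 changes from 0.22 to 0.55 (median 0.41), where the other 398 tested genes of that chromosome had a median of 0.35 and 80.2% of them were called higher. They come from different complexes: Ndufaf2, Ndufs4 and Ndufs6 of complex I, Sdha of complex II, Uqcrb and Uqcrfs1 of complex III, and Cox7c of complex IV. On chromosome 15 all 4 members, Ndufa6, Ndufb9, Cox6c and Atp5g2, fell (-0.52 to -0.30, median -0.40), with a median of -0.25 and 80.6% called lower for the other 427 genes. In SCC2 6 of 7 members of chromosome 17 and 5 of 6 of chromosome 9 fell too, and all 3 of chromosome 16 and all 3 of the X chromosome rose. Of the other genes, 57.5% on chromosome 17 and 64.9% on chromosome 9 were called lower, and 68.2% on chromosome 16 and 74.3% on the X chromosome higher. The named chromosomes were picked after their values were seen.

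In SCC1 all 6 members of chromosome 9 fell (median -0.15, other genes -0.19), as did 4 of 5 of chromosome 10 (median -0.18, other genes -0.19), among them Atp5b, Atp5d and Ndufs7. Of the other genes, 67.1% on chromosome 9 and 67.8% on chromosome 10 were called lower. All 4 members of chromosome 6, Ndufa4, Ndufa5, Ndufa9 and Ndufb2, rose (median 0.32). The other genes there had a median of 0.13, and 55.2% were called higher. On chromosome 4, where the other genes had a median of -0.33 and 82.6% were called lower, 3 of 6 members fell and 1 rose (median -0.10).

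**Figure D5:**
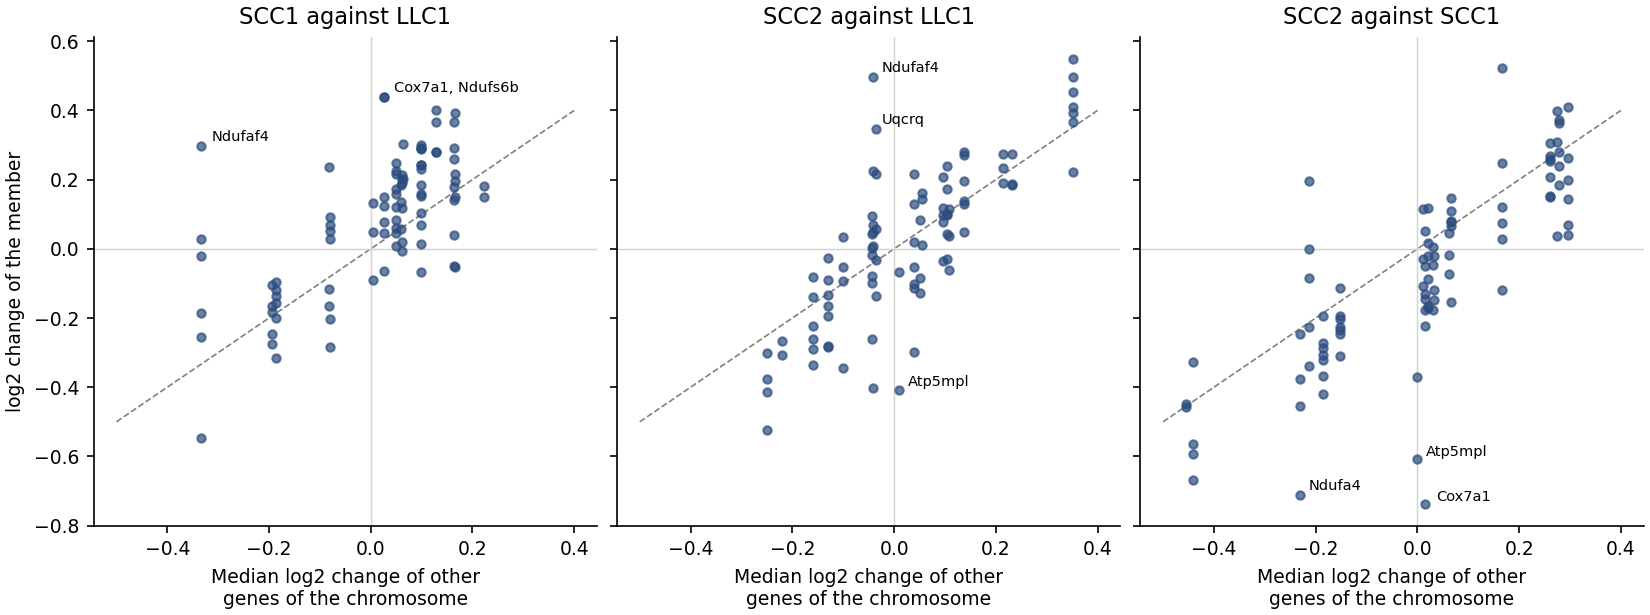
Log2 change of each of the 89 tested members (vertical) against the median log2 change of the other tested genes of its chromosome (horizontal) in the 3 comparisons; the dashed line marks equality and the members farthest from it are named. Points follow the line, with r of 0.658, 0.786 and 0.801, and Ndufaf4 lies farthest above it in SCC1 and SCC2.

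With the median of each chromosome removed from its genes, the leaning of complex I upward in SCC1 was still there, and part of the changes in SCC2 were not. In SCC1 39 members were higher and 13 lower, against 29.9% and 30.6% of all tested genes, and 23 and 4 of the 47 in complex I. In SCC2 19 were higher and 26 lower, against 28.8% and 29.6%. Between the subclones 10 were higher and 38 lower in SCC2, against 33.7% and 33.7%, and in complex I 2 and 20. Both comparisons that include SCC1 use the same SCC1 libraries. Complex II, with 3 higher and 0 lower in SCC2 than in SCC1 before, then had 1 and 2, and complex III, with 5 and 3 before, had 1 and 4, so their direction turned. Removing the medians turned the sign of several members. Among them were Atp5a1 (-0.07), Atp5b (0.03), Sdhd (0.03) and Uqcrq (-0.02) in SCC1, and Cox4i1 (-0.07), Cox7b (-0.05) and Sdhd (0.02) in SCC2. In SCC1 Ndufs7 (adjusted p = 0.273), Ndufaf1 (0.112), Ndufaf5 (0.0542) and Atp5g1 (0.096) were no longer called. In SCC2 the same held for Sdha (0.629), Sdhc (0.966), Ndufs6 (0.415), Ndufv2 (0.24), Uqcrfs1 (0.183) and Atp5j (0.641), all limma adjusted p-values. The calls of Uqcrh, Ndufb9, Ndufa6, Cox6c and Atp5mpl in SCC2 remained, with values of -0.36, -0.04, -0.27, -0.16 and -0.41.

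A few members stood away from their chromosome. Ndufaf4 on chromosome 4 rose in both subclones (0.30 and 0.50) where its chromosome had medians of -0.33 and -0.04. The 20 tested genes nearest to Ndufaf4, members left out, had medians of -0.13 in SCC1 and 0.07 in SCC2. Sdhb on the same chromosome was not called in SCC1 (-0.02, SE 0.0259, limma adjusted p = 0.474), and with the chromosome median removed its value was 0.31. The fall of Uqcrh in SCC2 (-0.40) was not shared by its chromosome (-0.04), while in SCC1 the other genes had fallen as well. Atp5mpl fell by 0.41 in SCC2 on chromosome 12, which had a median of 0.01. Its 20 nearest tested genes outside the members had a median of -0.24, so a fall was shared nearby. Uqcrq rose by 0.35 on chromosome 11 with a median of -0.04. Ndufa4 differed by -0.71 between the subclones where chromosome 6 differed by -0.23 and its 20 nearest such genes by -0.33.

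Members with a shared promoter core moved in both directions. The 10 members with an NRF1 core lie on 7 chromosomes; in SCC1 4 rose and 3 fell, and in SCC2 3 rose and 4 fell. Of all tested genes 39.2% rose and 30.9% fell in SCC1, and 34.7% and 32.9% in SCC2, so these counts are near the background. Of those shown above, Ndufa8 had log2 changes of 0.30 in SCC1 and 0.10 in SCC2, Ndufaf4 0.30 and 0.50, and Atp5g2 -0.05 and -0.38. The 10 members with a YY1 core split into 5 higher and 2 lower in SCC1 and 5 and 3 in SCC2, and the 5 with an ETS core into 2 and 3 and 0 and 1. The regulators themselves were expressed at unequal levels. Gabpa, a subunit of the ETS factor GABP, had 17.2 ± 0.464 FPKM in LLC1, 15 ± 0.585 in SCC1 and 22.5 ± 0.907 in SCC2, and Yy1 had 29.2 ± 0.428, 32.5 ± 0.29 and 24.5 ± 0.51. Nrf1, given here because of the NRF1 core, had 3.62 ± 0.104, 3.96 ± 0.104 and 3.76 ± 0.0982 FPKM.

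Genes that feed or build the chain were counted beside the members, and their counts read against the same shares of all tested genes (39.2% higher and 30.9% lower in SCC1, 34.7% and 32.9% in SCC2). Of 14 tricarboxylic acid cycle genes, which supply NADH and succinate, 10 were higher and 1 lower in SCC1 (median 0.16) and 5 and 3 in SCC2 (median -0.01). The succinyl-CoA ligase subunit Suclg2 had 26.6 ± 0.558, 34.1 ± 0.143 and 22.1 ± 0.461 FPKM in LLC1, SCC1 and SCC2, and citrate synthase Cs 132 ± 0.257, 117 ± 0.76 and 150.2 ± 1.78. Of 46 further assembly factors of complexes I to V, 11 were higher and 10 lower in SCC1 and 16 and 9 in SCC2. Of 18 genes of mitochondrial biogenesis and mitochondrial DNA upkeep, 9 and 2 moved in SCC1 and 8 and 3 in SCC2; Lrpprc, which stabilises mitochondrial mRNA, rose in SCC1 from 27.7 ± 0.936 to 38.5 ± 0.285 FPKM. Of 12 ubiquinone synthesis genes 3 and 3 moved in SCC1 and 6 and 1 in SCC2.

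The genes of cytochromes c1 and c moved in opposite directions in SCC2. Cyc1, the cytochrome c1 subunit of complex III, had 92.8 ± 1.95 FPKM in LLC1, 112 ± 1.35 in SCC1 and 72.3 ± 1.18 in SCC2, and lies on chromosome 15 like the members that fell there. Cytochrome c, Cycs, had 16.4 ± 0.0783, 20.8 ± 0.783 and 17.6 ± 0.292 FPKM. All 3 tested carriers of the inner membrane were called higher in SCC2: the ADP/ATP carrier Slc25a5 rose from 354 ± 5.53 to 497 ± 4.21 FPKM, Slc25a4 from 221 ± 3.67 to 252 ± 0.738, and the phosphate carrier Slc25a3 from 344 ± 4.92 to 385 ± 4.32. In SCC1 Slc25a5 (443 ± 4.88 FPKM) and Slc25a4 (229 ± 3.53) were higher than in LLC1 too, and Slc25a3 fell to 288 ± 5.5.

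Cell type markers were read against the label of lung tumor cells. The epithelial keratins Krt8 and Krt18 were present (113 ± 1.14 and 223 ± 3.6 FPKM in LLC1), while Cdh1, Sftpc and Nkx2-1 were at or near 0 (means of 0.00853, 0.0222 and 0.00509), so defining markers of lung epithelium were absent. Of 11 epithelial and lung epithelial markers 7 were analysed and 3 tested. Of those tested, 2 were higher and 0 lower in SCC1, and 0 higher and 3 lower in SCC2. Of 7 leukocyte markers 3 were analysed and 1 tested, Cd68, at 4.11 ± 0.351, 9.14 ± 1.1 and 3.05 ± 0.236 FPKM in LLC1, SCC1 and SCC2. The 3 endothelial markers analysed had means of at most 0.0112 FPKM and were not tested. Of 6 fibroblast markers 3 were tested, all lower in SCC1, with Col3a1 at 575 ± 13.1, 257 ± 5 and 699 ± 12. In SCC2 Col3a1 was higher than in LLC1, and the other 2 tested were lower, Dcn from 3.02 ± 0.495 to 2.1 ± 0.383 FPKM and Pdgfra from 5.18 ± 0.212 to 3.04 ± 0.0788. Summed, the epithelial markers ran from 333 to 342 FPKM in LLC1, 446 to 456 in SCC1 and 232 to 233 in SCC2, and the fibroblast markers, nearly all Col3a1, from 572 to 598, 258 to 268 and 692 to 714. The leukocyte markers, nearly all Cd68, summed to 3.88 to 4.52, 8.36 to 10.4 and 2.78 to 3.22 FPKM. The part of these markers in the members' changes was not tested.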

How the data were processed

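The authors measured RNA of 9 libraries, 3 for each of 3 lines, and deposited FPKM values. Per the series' design text, reads were trimmed with Trimmomatic, cleared of poly-N and low-quality reads, aligned with hisat2 and turned into FPKM with cufflinks. Per the submitters' processing notes the builds were GRCm38 and mm10. The sources used here give no tool versions, annotation or use of strand, and they name both a SMARTER kit and a TruSeq stranded kit. Of the 93 members, 24 overlap exons of another gene in GENCODE, 22 of them on the opposite strand, and reads of such genes, or of near-identical copies, may be shared.

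The titles of the samples gave the groups. A filter kept the 10519 genes with 1 FPKM or more in 3 or more libraries. These were tested on log2(FPKM + 1), a pseudocount of 1, by limma 3.58.1 under R 4.3.3, with the trend and robust options of eBayes, line as sole factor and the 9 libraries fitted jointly. P-values were two-sided and adjusted over all tested genes by Benjamini-Hochberg. Both fragment recovery and the fit were tested on simulated data. The changes simulated for the fit were 1.5-fold or more, so they do not cover the smaller changes of most members. Whole fragments were worked back from the low FPKM values, for 12270 of 12270 genes above 0 in all libraries within 0.001 fragments, apart from any factor that all counts of 1 gene share. They give the depths, and fragment levels cover counting error only. Chi-square values per gene between libraries of a line were 1.19 to 1.69, so none was treated as a repeat. Chromosomes and promoters came from RefSeq on GRCm38, which matched all 93 members by symbol. Tables were made with pandas 2.3.3 and figures with matplotlib 3.10.9 under Python 3.11.15.

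Members, gene lists and tests were chosen with earlier results of these data known. Genes are named by rule: in each group and comparison up to 3 members with the largest changes among those called, without overlapping libraries and with a higher mean of at least 5 FPKM, all of complex II, members with tissue-restricted relatives, the highest and lowest member of each group, and up to 3 genes of other lists by adjusted p. Members whose promoters are printed, those listed by chromosome and the regulator Nrf1 were added after values were seen. Some genes that the rule names are not reported here. Alternatives were other pseudocounts, filters, scalings and models, each library left out, a replicate block and chromosome medians removed.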

Additional observations from a re-analysis of the deposited data

How the results depend on the processing

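Only the removal of chromosome medians moved a count of called members by over 1.5 times: members called higher fell to 19 from 32 in SCC2 against LLC1, and to 10 from 28 in SCC2 against SCC1. Of 2772 values of named members under the alternatives, 2648 kept their direction and side of the threshold, 74 lost the call, 28 gained it and 22 were reversed, all 22 with chromosome medians removed. In SCC1 against LLC1 the log2 changes then were -0.0714 for Atp5a1, 0.0298 for Atp5b, -0.12 for Ndufa6, 0.31 for Sdhb, 0.0280 for Sdhd, 0.0119 for Uqcr11 and -0.0171 for Uqcrq. In SCC2 against LLC1 they were -0.0706 for Cox4i1, -0.0471 for Cox7b, 0.0406 for Ndufaf7 and 0.0200 for Sdhd. In SCC2 against SCC1 they were -0.0398 for Atp5d, 0.21 for Atp5g1, 0.12 for Atp5g2, -0.10 for Ndufaf4, -0.25 for Ndufaf6, 0.13 for Ndufaf8, -0.11 for Ndufs6, -0.0520 for Sdha, -0.22 for Sdhb, -0.0059 for Uqcrb and -0.15 for Uqcrh. With a library left out, 45 to 51 members were higher and 18 to 19 lower in SCC1, 28 to 34 and 25 to 27 in SCC2, and 22 to 29 and 38 to 43 for SCC2 against SCC1. The replicate numbers of the titles showed no pairing in the values: the 9 correlations of same-numbered libraries ran from -0.068 to 0.089. Whether same-numbered libraries were handled together cannot be told from these values. With the replicate number as a block, 50 members were higher and 17 lower in SCC1, 32 and 28 in SCC2, and 26 and 41 for SCC2 against SCC1. With genes of 5 FPKM or more, the copies named b or c gave no value, nor did the named members Cox7a1, Ndufaf4 and Ndufaf6. The rise of Ndufaf4 was therefore not checked under that filter. Genes of low FPKM rest on few fragments, which limits Cox7a1 and the copies.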
